A study of Homo sapiens with 12 samples.

Results

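The core spliceosome proteins are the parts of the machine that cuts introns out of new transcripts, and the values below describe the mRNAs of 44 genes that encode them in A2780 cells. A2780 is an established human ovarian carcinoma line. The 44 genes were taken by name (current or older symbol) as protein components of the small nuclear ribonucleoproteins (snRNPs) and of the complexes that join them during splicing. No rule on how their signals moved was used, but the list was made with earlier results of these data known. All 44 were measured on AFFX and 42 on ABI, out of 19777 and 17192 genes with an Entrez Gene ID on the 2 platforms and 16186 shared by both. SNRPD3 and SNRNP27 have no ABI probe that stands for 1 gene only. AFFX is the Affymetrix Human Genome U133 Plus 2.0 array, and ABI is the Applied Biosystems Human Genome Survey Microarray, which is read by chemiluminescence.

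The comparison was between attached A2780 cells left untreated (control) and attached A2780 cells kept for 6 h in 3 µM of a cell cycle inhibitor (treated), and it asked which mRNAs differed after exposure. The labels do not name the inhibitor, and its targets are therefore not discussed. Each condition was represented by 1 pool of RNA made from separate cultures, and the pool was split into aliquots for 3 AFFX and 3 ABI arrays, 12 arrays in all. Every p-value below therefore measures the technical spread between aliquots and compares 1 pair of pools. The number of arrays limits the precision, and agreement of the platforms is agreement of 2 measurements of the same RNA. In RNA from whole cultures, fewer cells that carry an mRNA and less of that mRNA per cell cannot be told apart.

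The spliceosome is assembled anew on each intron. The U1 snRNP pairs with the 5′ splice site, while SF1 and the U2AF dimer recognise the branch point, the polypyrimidine tract and the 3′ splice site. The U2 snRNP then takes the branch point from SF1, and U4, U6 and U5 join as a preformed tri-snRNP. U4 is unwound from U6 and leaves, the PRPF19 complex stabilises the active form, and catalytic factors complete the cut and the joining of exons. Around each spliceosomal snRNA other than U6 lies a ring of Sm proteins. Splicing is needed in every human cell, and its core genes are counted among the housekeeping genes.

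The promoters of the core genes are shown first, because genes that were lower together can be set beside genes of the same machine that were not. RefSeq promoter sequences (GRCh38.p14, 250 bases before to 50 after the start of the transcript) were at hand for 40 of the 44 genes. The 3 available promoters of genes that were lower on both platforms are given first (PRPF3 and SART3 had no entry), and 1 gene each of the Sm core, the U1 snRNP and the U2 snRNP follows, chosen as the first by symbol that holds the ETS letters described below. None of these last 3 was called on either platform. Each is printed 5′ to 3′ in the direction of the gene, from 250 bases before to 25 after the start. Capitals mark letters of the motifs searched.
CWC22, chr2:180007273-180007547, minus strand: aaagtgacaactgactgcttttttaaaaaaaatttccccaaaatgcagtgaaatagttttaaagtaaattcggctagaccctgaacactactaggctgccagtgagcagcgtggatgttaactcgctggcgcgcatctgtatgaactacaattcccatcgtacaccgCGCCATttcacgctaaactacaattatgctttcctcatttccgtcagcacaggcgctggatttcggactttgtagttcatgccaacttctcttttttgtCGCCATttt
PRPF38B, chr1:108692060-108692334, plus strand: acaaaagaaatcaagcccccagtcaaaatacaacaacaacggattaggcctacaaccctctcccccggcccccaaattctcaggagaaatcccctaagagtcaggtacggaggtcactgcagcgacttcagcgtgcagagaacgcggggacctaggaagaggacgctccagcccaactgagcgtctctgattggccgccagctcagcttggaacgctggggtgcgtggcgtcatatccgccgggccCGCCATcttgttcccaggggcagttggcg
PRPF4, chr9:113275408-113275682, plus strand: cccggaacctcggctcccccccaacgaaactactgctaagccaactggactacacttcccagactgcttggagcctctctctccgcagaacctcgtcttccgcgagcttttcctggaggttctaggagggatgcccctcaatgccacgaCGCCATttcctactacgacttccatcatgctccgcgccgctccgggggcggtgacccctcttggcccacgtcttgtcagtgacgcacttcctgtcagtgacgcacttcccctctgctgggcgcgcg
SNRPB, chr20:2470765-2471039, minus strand: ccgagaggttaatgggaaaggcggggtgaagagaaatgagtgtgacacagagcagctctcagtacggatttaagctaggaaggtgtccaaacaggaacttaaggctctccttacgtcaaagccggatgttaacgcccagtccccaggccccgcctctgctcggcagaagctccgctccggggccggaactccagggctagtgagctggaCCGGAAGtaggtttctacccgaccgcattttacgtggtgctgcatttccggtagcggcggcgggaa
SNRPC, chr6:34757255-34757529, plus strand: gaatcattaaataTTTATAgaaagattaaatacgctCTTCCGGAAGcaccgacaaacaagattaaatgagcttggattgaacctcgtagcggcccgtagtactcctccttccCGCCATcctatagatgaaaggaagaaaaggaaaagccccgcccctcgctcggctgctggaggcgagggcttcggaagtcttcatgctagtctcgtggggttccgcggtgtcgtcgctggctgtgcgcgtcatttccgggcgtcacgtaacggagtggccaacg
SF3A1, chr22:30356870-30357144, minus strand: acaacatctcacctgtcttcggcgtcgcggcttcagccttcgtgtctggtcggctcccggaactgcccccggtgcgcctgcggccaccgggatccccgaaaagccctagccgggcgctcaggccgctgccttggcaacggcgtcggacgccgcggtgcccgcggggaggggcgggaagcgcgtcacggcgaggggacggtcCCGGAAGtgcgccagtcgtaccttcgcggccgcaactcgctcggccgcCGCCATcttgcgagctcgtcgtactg

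The letters CCGGAAG, bound by many ETS family factors, were found on either strand in 21 of the 40 promoters (52.5%), against 14.2% of 15843 protein-coding promoters of the same length. SNRPB holds them once, at base -41 from the start, SF3A1 once, at base -49, and SNRPC on both strands in an overlapping palindrome. The letters were in 0 of the 3 promoters of genes lower on both platforms. Of the genes lower on AFFX alone, SLU7 and SNRNP200 hold them and SF1, U2AF1 and CDC5L do not. SF3B4, lower on ABI alone, holds them. SNRPB, SNRPC and SF3A1 were printed because they hold these letters, so the contrast between the printed promoters is no test. The letters CGCCAT, the core bound by YY1, were searched after the sequences had been seen. They were in 16 of 40 promoters (40%), among them all 3 of the genes lower on both platforms, against 14.3% of all protein-coding promoters. In CWC22 they lie at bases -83 and 16, in PRPF38B at base -4 and in PRPF4 at base -101, all counted from the start as 0. They also lie in SNRPC at base -138 and in SF3A1 at base -1, and 13 of the 37 other core promoters (35.1%) hold them. The letters were picked with these sequences in view, so their presence in all 3 is no test. The letters TATAAA, which many promoters of tissue-specific genes hold, were in 2 of 40 (5%, against 9.63% of all). GCATGCGC, bound by NRF1, was in 3 (7.5%, against 4.26%), and CACGTG, the E-box of MYC and MAX, was in 2 (5%, against 8.88%). The ETS and YY1 letters do not overlap each other in the promoters shown. A match of letters is a description of the sequence and no measurement of binding in these cells. The median GC content of the 40 promoters was 60.3%, and that of all protein-coding promoters 62.7%.

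Signals are on the log2 scale throughout, so a difference of 1 is 2-fold. AFFX values are the authors' RMA signals, and ABI values are the authors' linear signals turned to log2 here. Levels of the core and partner genes are compared only within a probe. Where a gene had several single-gene probes, the counts use the one that an equal-variance t-test gave the lowest p, a choice that leans toward large changes, so all probe sets of the genes called on AFFX are also described. Treated minus control differences were tested with limma, with Benjamini-Hochberg adjustment over all probes of a platform. Calls of lower or higher needed a change of 1.5-fold or more and an adjusted p below 0.05. Array medians lay between 5.37 and 5.47 on AFFX and between 0.08 and 0.25 on ABI. The AFFX hybridisation controls, bacterial transcripts spiked into each labelled sample, lay at 9.26 to 9.47 in the control arrays and at 9.88, 9.91 and 9.49 in treated replicates 1, 2 and 3. The mean was 0.42 higher after treatment (2-sided p = 0.1 by exact permutation, which with 3 against 3 arrays cannot go lower), and their part in the results was not tested. The reference genes ACTB (-0.03 on AFFX, 0.22 on ABI) and GUSB (0.19 and 0.24) were not called. Of 8 ovarian carcinoma markers, the chosen AFFX sets of WT1, MUC16, EPCAM, KRT7 and CDH1 lay under the median of all probe sets in control arrays, a rough check without detection calls. Of the 8, 0 were called on AFFX, and on ABI MUC16 was higher and KRT18 lower. No leukocyte marker was called (6 measured on AFFX, 7 on ABI). Of the 8 fibroblast and endothelial markers, COL1A2 and COL3A1 were lower on AFFX alone and COL1A1 was higher on ABI alone.

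After 6 h of exposure most core spliceosome mRNAs stayed within 1.5-fold of control. PRPF3, PRPF4, SART3, PRPF38B and CWC22 were lower on both platforms, by 1.56-fold to 4.2-fold on the chosen probes. None was higher on both, and none was called in opposite directions. On AFFX 10 of 44 genes were lower (22.7%), where 14.2% of all genes were lower, and 3 were higher (6.82%), where 2.49% of all genes were higher. On ABI 6 of 42 were lower (14.3%, all genes 14.8%) and 1 was higher (2.38%, all genes 6.31%). The 5 genes lower on both platforms are 11.9% of the 42 measured on both, close to the 10.5% of all shared genes, and 0 were higher on both (all shared genes 0.42%). The median log2(Fold Change) of the 44 genes was 0.17 on AFFX, where that of all genes was 0.16, and on ABI it was -0.04 against 0.09 for all genes. The direction of small differences depends on scaling: with each array centred on its ribosomal protein genes, the medians of the core genes became -0.27 and -0.65 and those of all genes -0.23 and -0.58. Under that centring 9 of the 42 genes were lower on both platforms. The share of all shared genes lower under that centring is not given here, and the 10.5% above does not stand for it.

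**Figure D1:**
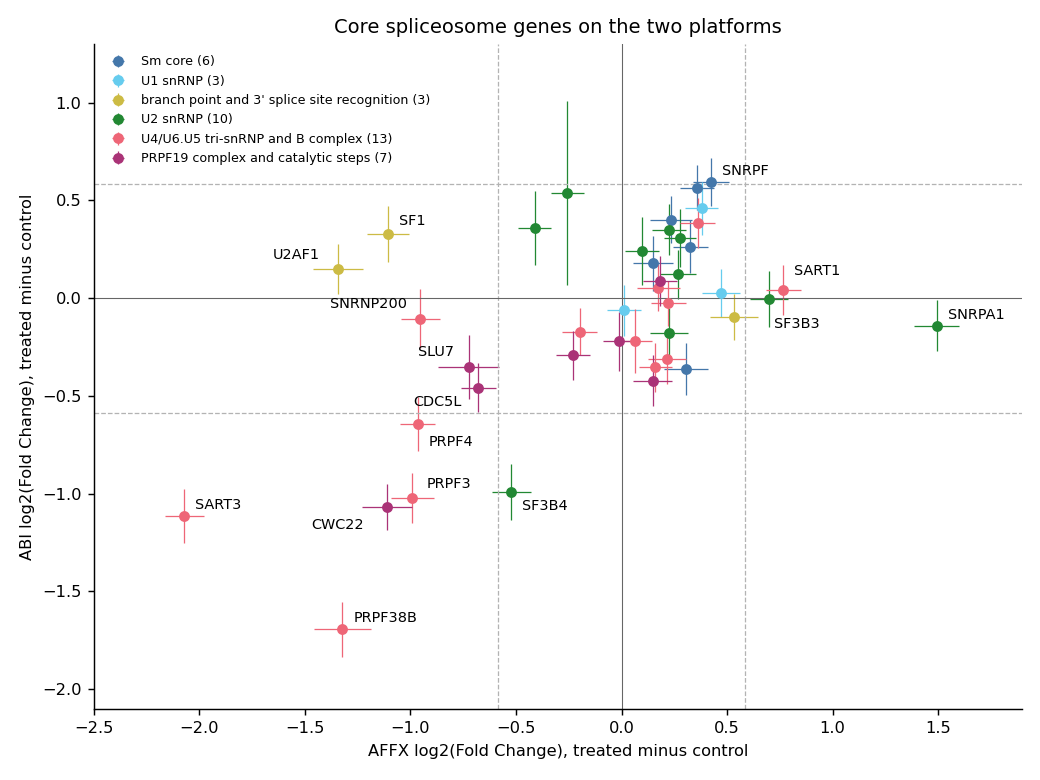
Treated minus control difference in log2 signal on AFFX (x axis) against ABI (y axis) for the 42 core spliceosome genes measured on both platforms, coloured by role, with bars of 1 standard error from limma and dashed lines at 1.5-fold. PRPF3, PRPF4, SART3, PRPF38B and CWC22 lie beyond the dashed lines at lower left, no gene lies beyond both at upper right, and SNRPA1 (1.49 on AFFX, -0.14 on ABI), SF1 and U2AF1 lie far from the diagonal.

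The genes that were lower on both platforms belong to the tri-snRNP and B complex group in 4 cases and to the PRPF19 and catalytic group in 1. SART3, which helps U4 and U6 to pair again after each round of splicing, had the largest change of all 44 genes on the chosen AFFX sets. The AFFX signal of SART3 (Entrez Gene ID 9733) was 8.84, 8.71 and 8.61 in control replicates 1 to 3 and 6.54, 6.71 and 6.69 in treated replicates 1 to 3. All treated arrays lay below all control arrays, and the difference was -2.07 (SE 0.0918, limma adjusted p = 5.02e-08), or 4.2-fold. On ABI, SART3 went from 4.66, 4.60 and 4.44 to 3.60, 3.35 and 3.41. The groups again did not overlap, with a difference of -1.11 (SE 0.138, adjusted p = 0.00547), or 2.16-fold. The fall was larger on the chosen AFFX probe set than on ABI by 0.96 (interaction in limma, adjusted p = 0.00221). The other AFFX probe sets of SART3 gave -0.81, -0.59 and 0.08, and only the last of these was not called. The set that gave -0.59, or 1.51-fold, was the SART3 set of highest mean signal.

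PRPF3 and PRPF4 are partner proteins of the U4/U6 snRNP that bind each other, and mutations in both genes are a known cause of retinitis pigmentosa. The AFFX signal of PRPF3 (Entrez Gene ID 9129) was 9.12, 9.02 and 8.91 in control arrays and 7.95, 8.21 and 7.92 in treated arrays, a difference of -0.99 (SE 0.102, adjusted p = 2.44e-05). On ABI it went from 5.94, 5.86 and 5.69 to 4.83, 4.75 and 4.84, a difference of -1.02 (SE 0.128, adjusted p = 0.00575). The control and treated arrays were apart on both platforms, and the sizes of the falls differed between platforms by 0.03 (interaction adjusted p = 0.92). PRPF4 (Entrez Gene ID 9128) gave 9.69, 9.56 and 9.62 on AFFX control arrays and 8.66, 8.73 and 8.59 on treated arrays. Its difference was -0.97 (SE 0.0834, adjusted p = 6.04e-06), and its other AFFX probe set was lower too, by 1.62-fold. On ABI, PRPF4 went from 4.71, 4.43 and 4.40 to 3.88, 3.84 and 3.89. The groups were apart, but the difference of -0.65 (SE 0.137, adjusted p = 0.0279) lay near the limit of 1.5-fold. PRPF4 lost its ABI call when any 1 of the 6 ABI arrays was left out, with differences between -0.70 and -0.55, and with quantile normalization of the ABI arrays (-0.45).

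PRPF38B is a relative of PRPF38A, a protein of the B complex, and it had the largest fall of the 42 genes on ABI. There the signal of PRPF38B (Entrez Gene ID 55119) was 4.66, 4.49 and 4.52 in control arrays and 3.03, 2.70 and 2.85 in treated arrays. The treated arrays were all lower, by 1.69 on the log2 scale (difference -1.69, SE 0.142, adjusted p = 0.0016), or 3.24-fold. On AFFX it went from 7.99, 7.88 and 7.40 to 6.50, 6.39 and 6.40. Control replicate 3 was the lowest of the controls and still well above the treated arrays, and the difference was -1.32 (SE 0.136, adjusted p = 2.43e-05). Its other AFFX probe set gave -1.14. PRPF38A itself was not called: its differences were 0.22 on the chosen AFFX set, 0.06 and -0.14 on the other sets and -0.31 on ABI.

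CWC22 binds EIF4A3 and brings it to the spliceosome, where the exon junction complex is laid down. The AFFX signal of CWC22 (Entrez Gene ID 57703) was 7.57, 7.64 and 7.20 in control arrays and 6.42, 6.40 and 6.24 in treated arrays. All treated arrays were lower, with a difference of -1.11 (SE 0.119, adjusted p = 3.3e-05). On ABI it went from 4.35, 4.21 and 4.21 to 3.17, 3.24 and 3.16, a difference of -1.07 (SE 0.118, adjusted p = 0.00373). The falls of 2.16-fold on AFFX and 2.1-fold on ABI differed by less than their errors (interaction adjusted p = 0.899).

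**Figure D2:**
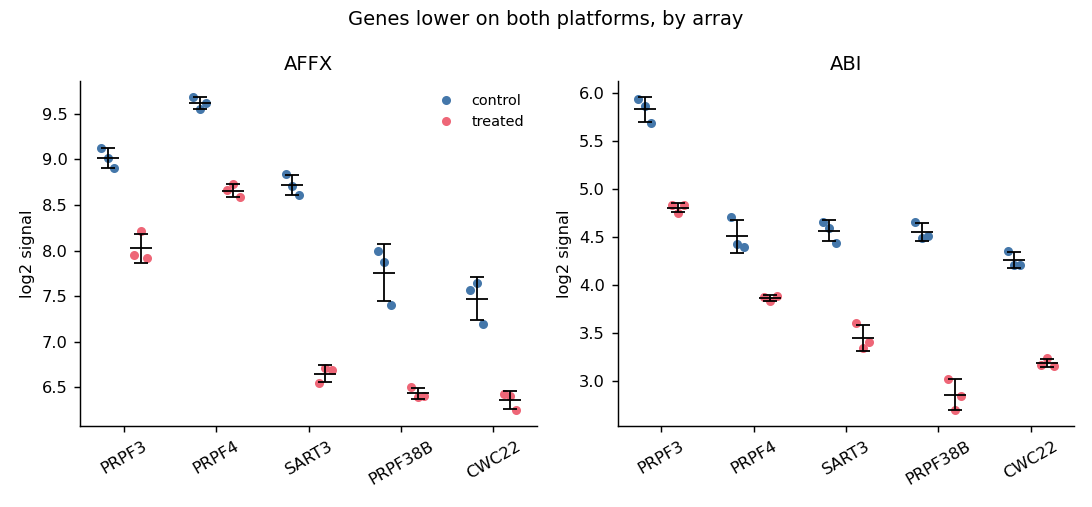
Log2 signal of each of the 3 control and 3 treated arrays (points) on AFFX (left) and ABI (right) for the 5 core spliceosome genes lower on both platforms, with the group mean and 1 SD. For each gene and platform all treated arrays lie below all control arrays; the gap is widest for SART3 on AFFX (2.07) and for PRPF38B on ABI (1.69), and signals of different genes are not comparable.

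The Sm proteins form the ring on U1, U2, U4 and U5 snRNA. On the chosen AFFX sets all 7 Sm genes had positive differences, from 0.15 (SNRPB) to 0.42 (SNRPF). Of the 7, 0 were called (all genes 14.2% lower and 2.49% higher). The median of all AFFX genes was itself 0.16. For SNRPD1 and SNRPB the AFFX set of highest mean signal was not the chosen one, and it gave -0.01 and 0.06. On ABI 5 of 6 were positive, and SNRPF was the single Sm gene called. Its ABI signal (Entrez Gene ID 6636) was 8.58, 8.61 and 8.45 in control arrays and 9.15, 9.05 and 9.22 in treated arrays. The groups were apart by 0.59 (SE 0.123, adjusted p = 0.0257), or 1.51-fold, just past the limit. The call was lost when any ABI array other than control replicate 1 was left out. SNRPF's second ABI probe was higher as well, by 0.68. On AFFX, SNRPF went from 11.43, 11.42 and 11.33 to 11.88, 11.86 and 11.70, also with no overlap, by 0.42 (SE 0.086, adjusted p = 0.00319), or 1.34-fold. SNRPD2 was the next, at 0.36 on AFFX and 0.56 on ABI, 1.48-fold and short of a call. SNRPE was the negative Sm gene on ABI, and its sign there depends on the probe: the chosen ABI probe gave -0.36 and the other, of higher mean signal, 0.51, neither of them called. The chosen AFFX set gave 0.31 and the other sets 0.37 and 0.02. The interaction of 0.67 (adjusted p = 0.0189) is between the chosen probes. SNRPD3 was measured on AFFX alone among single-gene probes, at 0.22. The ABI probe annotated to SNRPD3 and GGT1 together gave 0.36 and was not called.

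The U1 snRNP proteins SNRPA, SNRPC and SNRNP70 recognise the 5′ splice site together with U1 snRNA. None was called on either platform. SNRNP70, the U1 protein that binds the first stem of the RNA, had the largest AFFX difference of the 3. Its AFFX signal was 5.76, 5.94 and 5.85 in control arrays and 6.40, 6.21 and 6.35 in treated arrays, a difference of 0.47 (SE 0.0896, adjusted p = 0.00211), or 1.39-fold. On ABI its arrays overlapped, with a difference of 0.02, and the platforms differed by 0.45 (interaction adjusted p = 0.0437, and 0.0818 with a separate spread per platform). The other AFFX set of SNRNP70, of higher mean signal, gave 0.09. SNRPC gave 0.38 and 0.46, and SNRPA 0.01 and -0.06.

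SF1, which binds the branch point, and U2AF1, which reads the AG of the 3′ splice site, were lower on AFFX and not on ABI, and in both cases the AFFX probe sets of the gene disagreed. The chosen set of SF1 (Entrez Gene ID 7536) gave 8.11, 7.96 and 7.92 in control arrays and 6.89, 7.05 and 6.74 in treated arrays, a difference of -1.11 (SE 0.1, adjusted p = 8.99e-06). The other 2 sets of SF1 gave 0.02, on its set of highest mean signal, and 0.10. On ABI, SF1 went from 3.88, 3.57 and 3.80 to 3.99, 4.07 and 4.18, a difference of 0.33 (SE 0.142, adjusted p = 0.165). The treated arrays were thus all lower on the chosen AFFX set and all higher on ABI, and the difference between platforms was -1.43 (interaction adjusted p = 0.000398). The chosen set of U2AF1 (Entrez Gene ID 7307) gave 6.55, 6.38 and 6.32 in control arrays and 5.17, 5.24 and 4.81 in treated arrays, or 2.54-fold lower (adjusted p = 6.93e-06). Another of its 4 sets was lower by 1.52-fold. The remaining sets gave -0.02, on its set of highest mean signal, and 0.31. U2AF1 has a near-identical copy in the genome (U2AF1L5), and how far each probe reads the copy was not tested. On ABI, U2AF1 went from 8.78, 8.58 and 8.78 to 8.81, 8.83 and 8.94, a difference of 0.15 (SE 0.127, adjusted p = 0.478), and the platforms differed by -1.49 (interaction adjusted p = 0.000458). U2AF2, which binds the polypyrimidine tract, was not called, at 0.53 on the chosen AFFX set and -0.10 on ABI (interaction adjusted p = 0.0273), and its other 3 AFFX sets gave 0.08, 0.11 and 0.42.

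The U2 snRNP proteins hold the branch point. Of the 10 genes, SNRPA1 and SF3B3 were higher on AFFX alone and SF3B4 was lower on ABI alone. The chosen set of SNRPA1, a protein specific to U2 (Entrez Gene ID 6627), gave 6.25, 6.10 and 5.90 in control arrays and 7.50, 7.72 and 7.50 in treated arrays. That rise of 1.49 (SE 0.108, adjusted p = 1.42e-06), or 2.82-fold, was the largest of the 44 genes on AFFX. Its other 3 AFFX sets, all of higher mean signal, gave 0.08, 0.21 and 0.33, and none was called. On ABI its arrays overlapped (7.04, 6.82 and 6.89 in control, 6.84, 6.67 and 6.81 in treated), with a difference of -0.14 (adjusted p = 0.504). The platforms differed by 1.63, the largest such difference among the core genes (interaction SE 0.162, adjusted p = 0.000182). For SF3B3, a subunit of the SF3b complex (Entrez Gene ID 23450), 1 AFFX set was higher (6.82, 6.65 and 6.61 against 7.35, 7.49 and 7.34, a difference of 0.70, SE 0.0904, adjusted p = 0.000152). The other set, of higher mean signal, gave -0.04, and ABI gave 0.00 (SE 0.143), so the rise was seen by 1 probe set alone.

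SF3B4, the SF3b subunit that contacts the RNA next to the branch point (Entrez Gene ID 10262), fell on ABI from 4.18, 4.30 and 4.19 to 3.41, 3.05 and 3.23, by 0.99 on the log2 scale (difference -0.99, SE 0.144, adjusted p = 0.0091). On its single AFFX set it went from 10.54, 10.34 and 10.27 to 9.88, 9.89 and 9.80, a difference of -0.52 (SE 0.0924, adjusted p = 0.00135). The arrays were apart on both platforms, the AFFX change of 1.44-fold lay short of the limit, and the difference between platforms was not past the threshold (0.47, interaction adjusted p = 0.073). The remaining U2 genes were not called. SNRPB2 was -0.41 on its chosen AFFX set, 0.25 on its other set and 0.36 on ABI (interaction adjusted p = 0.0245, and 0.0514 with a separate spread per platform). The chosen AFFX set of SNRPB2 was dim, with means of 3.59 in control and 3.18 in treated arrays, under the medians of all AFFX arrays. The other set had means of 10.50 and 10.75. SF3A2 was -0.26 on AFFX, and its ABI value of 0.54 had an SE of 0.47, with treated replicate 2 at 2.00 and the other treated arrays at 0.77 and 0.42. SF3A1, SF3A3, SF3B1, SF3B2 and SF3B5 lay between 0.10 and 0.28 on AFFX and between -0.18 and 0.35 on ABI.

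**Figure D3:**
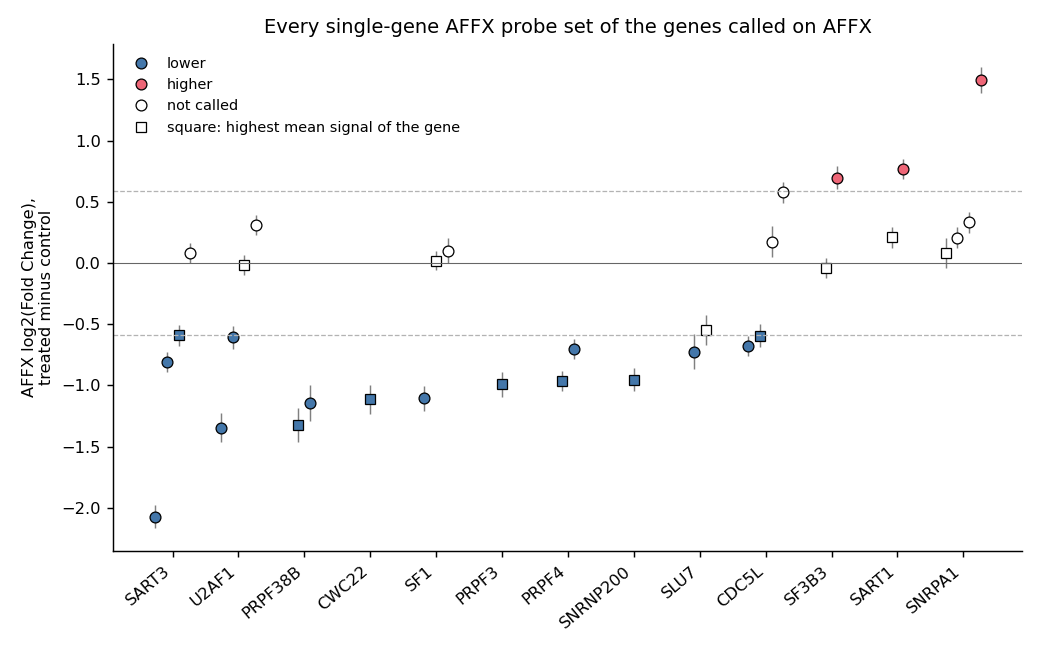
Treated minus control difference in AFFX log2 signal of each single-gene probe set (1 mark per set, bars of 1 standard error from limma) of the 13 core spliceosome genes called on AFFX, with squares for the set of highest mean signal and dashed lines at 1.5-fold. All sets of PRPF38B and PRPF4 are lower, as is the only single-gene set of each of CWC22, PRPF3 and SNRNP200. SART3, U2AF1, SF1, SLU7, CDC5L, SF3B3, SART1 and SNRPA1 each have sets that were not called.

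In the U4/U6.U5 tri-snRNP and B complex group, 5 of 14 genes were lower and 1 was higher on AFFX (all genes 14.2% and 2.49%), and 4 of 13 were lower on ABI (all genes 14.8%). Besides the 4 genes lower on both platforms, SNRNP200 was lower and SART1 higher on AFFX alone. SNRNP200, the helicase that unwinds U4 from U6 (Entrez Gene ID 23020), has 1 single-gene AFFX set, which gave 6.95, 6.92 and 6.91 in control arrays and 6.13, 5.93 and 5.86 in treated arrays. The difference was -0.95 (SE 0.0919, adjusted p = 1.49e-05). On ABI the arrays overlapped (3.87, 3.76 and 3.51 against 3.72, 3.51 and 3.59), the difference was -0.10 (adjusted p = 0.678), and the platforms differed by -0.85 (interaction adjusted p = 0.00653). The 3 AFFX sets annotated to SNRNP200 and LOC101929240 together gave 0.06, -0.07 and 0.24, and 0 of them was called. SART1, a tri-snRNP protein (Entrez Gene ID 9092), rose on 1 of 2 AFFX sets from 6.81, 6.79 and 6.89 to 7.60, 7.54 and 7.65, by 0.77 (SE 0.0812, adjusted p = 3.13e-05). Its other set, of higher mean signal, gave 0.21, and ABI gave 0.04 with overlapping arrays. The platforms differed by 0.72 (interaction adjusted p = 0.00344).

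None of the remaining genes of the group was called on either platform. PRPF8, the scaffold of the catalytic centre, was 0.07 on AFFX and -0.22 on ABI, with overlapping arrays on both platforms (limma adjusted p = 0.534 and 0.402). EFTUD2, the U5 GTPase, was 0.18 and 0.05, also with overlapping arrays. SNRNP40, a WD-repeat protein of U5, was 0.16 on AFFX and -0.35 on ABI, and these differed by 0.51 (interaction adjusted p = 0.0155, and 0.0513 with a separate spread per platform). PRPF6 and PRPF31, which bridge U5 and U4/U6, were -0.20 and -0.17, and 0.36 and 0.39. USP39 was 0.22 and -0.03. SNRNP27 was measured by single-gene probes on AFFX alone, at 0.34, and the 2 ABI probes annotated to SNRNP27 and MXD1 together gave 0.24 and -0.14.

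In the PRPF19 and catalytic group, CWC22 was lower on both platforms, and CDC5L and SLU7 were lower on AFFX alone. The chosen set of CDC5L, a core protein of the PRPF19 complex (Entrez Gene ID 988), gave 8.54, 8.56 and 8.43 in control arrays and 7.83, 7.88 and 7.79 in treated arrays, a difference of -0.68 (SE 0.0818, adjusted p = 8.82e-05). A second set was lower by 0.59 on the log2 scale (difference -0.59), the third gave 0.58, or 1.49-fold and short of a call, and the fourth gave 0.18. Without treated replicate 3 the lowest p passed to the third set, and the gene was then called higher on AFFX (0.63). On ABI, CDC5L went from 4.63, 4.42 and 4.54 to 4.0, 4.07 and 4.14, a difference of -0.46 (SE 0.125, adjusted p = 0.0538). SLU7, which acts in the choice of the 3′ splice site in the second step (Entrez Gene ID 10569), went from 6.59, 6.60 and 6.20 to 5.85, 5.93 and 5.44 on AFFX. The groups did not overlap, with a difference of -0.72 (SE 0.144, adjusted p = 0.00284). Without treated replicate 3, the lowest array, the lowest p passed to the other AFFX set of SLU7 (-0.40), and the call was lost. With all arrays that other set gave -0.54, and ABI gave -0.35 with overlapping arrays (adjusted p = 0.195). PRPF19, the ubiquitin ligase of the PRPF19 complex, was 0.18 and 0.09, PLRG1 -0.23 and -0.29, CWC15 -0.01 and -0.22, and PRPF18, a factor of the second step, 0.15 and -0.42 (interaction adjusted p = 0.0247). The other AFFX sets of PRPF18 gave -0.17 and 0.02 and its other ABI probe -0.36.

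Over all 91 single-gene AFFX probe sets of the 44 genes, 16 were lower and 3 higher, where 10.4% of all single-gene probe sets were lower and 1.71% higher. Several sets stood for 27 of the genes, and 0 genes had sets called in both directions. Taking for each gene the set of highest mean signal left 7 AFFX calls, all lower (PRPF3, PRPF4, SNRNP200, SART3, PRPF38B, CDC5L and CWC22). The rises of SNRPA1, SF3B3 and SART1 were not called on that set. PRPF3, SNRNP200 and CWC22 have 1 single-gene set each, so the choice could not change their calls. For SNRNP200 that set had means of 6.93 in control and 5.97 in treated arrays. A set annotated to SNRNP200 and LOC101929240 together had means of 10.65 and 10.70, gave 0.06 and was not called. With the sets of highest mean signal the genes lower on both platforms were the same 5.

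The change differed between platforms for 14 of the 42 genes measured on both (interaction adjusted p under 0.05), where 15.1% of all shared genes differed. In 5 of these 14 genes the difference was negative (SF1, U2AF1, SART3, SNRNP200 and SNRPB2), and in 9 it was positive. The size of this count depends on the choice of probe and on single arrays. It was 3 with the probe of highest mean signal, 7 without AFFX control replicate 2 and 9 without AFFX treated replicate 1. With a separate spread per platform it was 10, without SNRNP70, SNRPB2, SNRNP40 and PRPF38A. The shares of all shared genes that differed under these other settings are not given here, and the 15.1% does not stand for them.

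Beside the core genes stand 76 partner genes of the same pathway, listed by function: the LSM ring of U6, other proteins of each snRNP and of the catalytic complexes, the minor spliceosome, the factors that assemble snRNPs, and the exon junction complex. Of these, 70 were measured on AFFX, 70 on ABI and 68 on both. On AFFX 19 were lower and 8 higher (27.1% and 11.4%, all genes 14.2% and 2.49%), and on ABI 21 were lower and 3 higher (30% and 4.29%, all genes 14.8% and 6.31%). On both platforms 13 of 68 were lower (19.1%, all shared genes 10.5%) and 1 was higher (LSM5, 0.59 on AFFX and 0.73 on ABI). The factors that build snRNPs around the Sm proteins accounted for 6 of the 13: GEMIN2, GEMIN4, GEMIN6, PHAX, TGS1 and COIL, of 14 in that group (42.9%, all shared genes 10.5%). TGS1, which trimethylates the cap of snRNAs, was 8.80, 8.59 and 8.32 in AFFX control arrays and 6.46, 6.16 and 6.08 in treated arrays (difference -2.34, SE 0.133, adjusted p = 2.46e-07), and it was lower by 7.12-fold on ABI. GEMIN4, a protein of the SMN complex that loads Sm rings, fell by 4-fold on AFFX and 5.97-fold on ABI, and GEMIN6 of the same complex by 2.28-fold and 2.8-fold. PHAX, which exports snRNAs to the cytoplasm, gave -1.17 on AFFX and -0.61 on ABI. None of the 7 Sm genes was lower on AFFX (all genes 14.2%). None of the 6 measured on ABI was lower there (all genes 14.8%).

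The other partner genes with the largest AFFX falls shared with ABI act at different steps. GPATCH1, a G-patch protein of the catalytic spliceosome, gave -2.07 on AFFX and -3.92 on ABI, where its treated mean of -0.22 lay under the median of all ABI probes and, without detection flags, was not shown to be above background. PDCD7, of the U11/U12 snRNP of the minor spliceosome, gave -1.60 and -2.04, and LSM8, the subunit that marks the U6-bound LSM ring, -1.38 and -1.78. RBM22, which binds the catalytic RNA core, gave -1.24 and -1.42. MFAP1, CWC25 and PPWD1 were the remaining partner genes lower on both platforms. Of the exon junction complex, to which CWC22 connects the spliceosome, 0 of 3 genes measured on both platforms were called on both, and CASC3, measured on ABI alone, was lower there (-0.77, adjusted p = 0.0147).

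**Figure D4:**
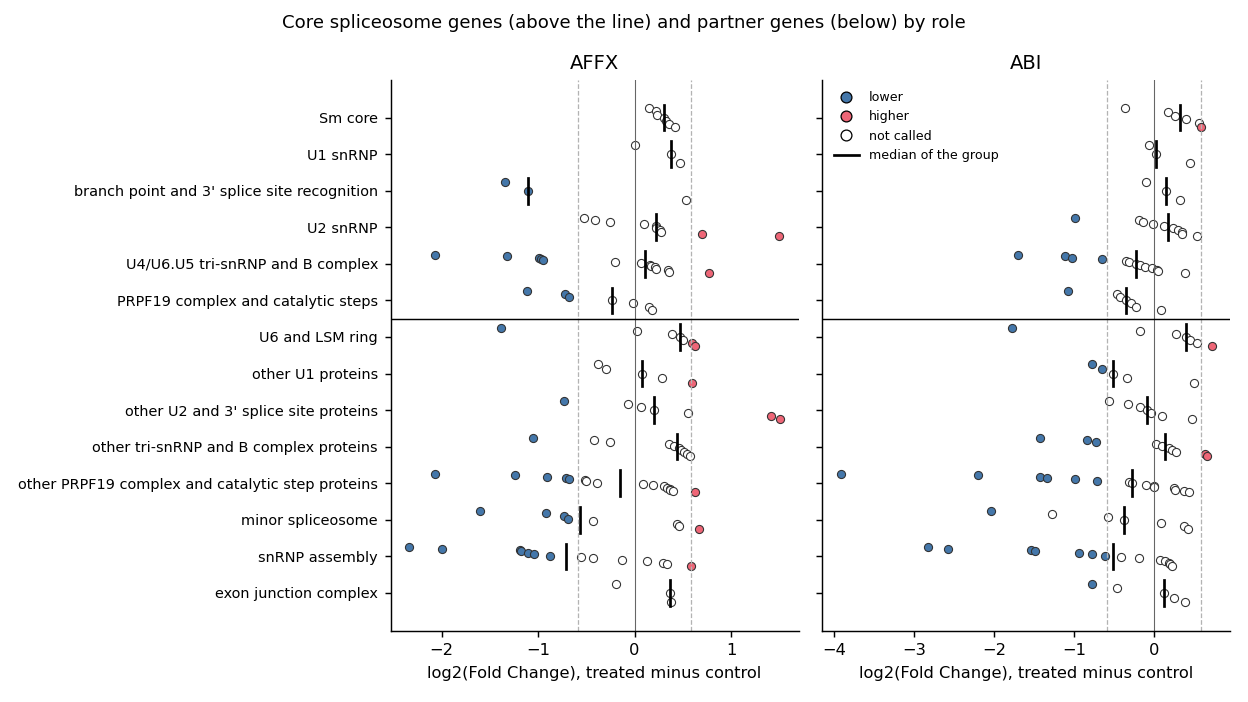
Treated minus control difference in log2 signal of the core spliceosome genes (above the line) and the partner genes (below) by role on AFFX (left) and ABI (right), with 1 point per gene (blue lower, red higher, white not called), black bars at the group median and dashed lines at 1.5-fold. The Sm core medians are 0.31 and 0.33, the snRNP assembly medians -0.72 and -0.51, and the x axes of the 2 panels differ in scale.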

How the data were processed

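Gene expression was measured in A2780 cells, control or treated with 3 µM of a cell cycle inhibitor for 6 h, with 3 AFFX and 3 ABI arrays each. Arrays were grouped by condition alone. The authors deposited log2 signals for AFFX, computed with RMA and quantile normalized (the RMA version is not given in the sources used here). For ABI the authors deposited linear chemiluminescence intensity values, scaled to a global median in units that are not named, with no detection flags. These were turned to log2 here. Gene names came from the platform annotation. Probes of several genes were left out of gene counts.

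Treated and control arrays were compared with limma 3.58.1 (lmFit, eBayes) in R 4.3.3 without pairing. P-values were adjusted by Benjamini-Hochberg over every probe except control probes. The difference of the platforms' changes was an interaction term over the shared genes. The limma calls on each platform and the interaction were tested on simulated data, in which all probes of a gene changed alike. Other steps were not tested in that way. The integrative correlation filter of the methods, which keeps genes that move alike on both platforms, was not run. Neither was the SAM step that follows it on each platform.

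The genes and lists were chosen with earlier results of these data known. Named with values were all genes called on either platform, the largest AFFX change in each role, genes measured on 1 platform, and up to 8 partner genes called alike on both. Other genes were named after their values were seen. Alternatives were the replicate block, other scalings, filters on dim or little-changing probes, another choice of probe, other fold limits, the methods' t-test, a separate spread per platform for the interaction, and each array left out. Promoter letters were counted on both strands in 1 promoter per gene. The number of arrays limits the precision.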

Additional observations from a re-analysis of the deposited data

Results flagged for a closer look

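The log2(Fold Change) of 14 core spliceosome genes differed between AFFX and ABI by the interaction in limma (adjusted p under 0.05 over all shared genes). It was more positive on AFFX, by AFFX minus ABI, for SNRPA1 (1.63), SART1 (0.72), SF3B3 (0.70), SNRPE (0.67), U2AF2 (0.63), PRPF18 (0.57), PRPF38A (0.53), SNRNP40 (0.51) and SNRNP70 (0.45). It was more negative on AFFX for U2AF1 (-1.49), SF1 (-1.43), SART3 (-0.96), SNRNP200 (-0.85) and SNRPB2 (-0.77). Of these, SART3 was lower on both platforms and differed only in size. For SNRPA1, SART1, SF3B3, U2AF1, SF1, SNRPB2, SNRNP70, U2AF2, PRPF38A, PRPF18 and SART3 at least 1 other AFFX probe set of the gene gave a value nearer to ABI, as described above. For SNRNP200 the sets shared with LOC101929240 did, and for SNRPE the other ABI probe lay nearer to AFFX. With a separate spread per platform 10 of the 14 stayed under the threshold, and the adjusted p was 0.0818 for SNRNP70, 0.0514 for SNRPB2, 0.0513 for SNRNP40 and 0.0505 for PRPF38A. Both platforms carried the same pools, so the 2 measurements share their RNA.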

How the results depend on the processing

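The 5 genes lower on both platforms (PRPF3, PRPF4, SART3, PRPF38B and CWC22) were the same under the filters on dim and little-changing probes, the probe of highest mean and the methods' t-test. With the replicate block 4 were lower on both and 0 higher on ABI, as PRPF4, SF3B4 and SNRPF lost their ABI calls. The arrays share only a number: deviations of same-numbered arrays correlated by 0.0746, 0.00403 and 0.327 on AFFX and 0.0342, -0.00667 and 0.0717 on ABI, and 3 of 6 AFFX and 4 of 6 ABI arrays correlated best with their own number. With ABI quantile normalized 0 were higher on ABI. With arrays centred on ribosomal protein genes 1 was higher on AFFX, 23 lower and 0 higher on ABI, 9 lower on both and 22 different between platforms. The medians were then -0.27 (AFFX) and -0.65 (ABI), and SF3B3 became -0.34 on AFFX. The medians of all genes moved too, to -0.23 and -0.58, and the shares of all genes called under this centring are not given here. The interquartile range filter left 19 AFFX and 12 ABI genes, chosen for moving, with medians of -0.68 and -0.55 and 2 different between platforms. With the probe of highest mean 0 were higher on AFFX, 3 differed between platforms, the AFFX median was 0.063, and SF1 (0.020) and SF3B3 (-0.043) turned direction. A 2-fold limit gave 5 lower and 1 higher on AFFX, 0 higher on ABI and 3 lower on both, and no fold limit gave 15 higher on AFFX, 2 on ABI and 2 on both. Leaving out 1 array gave 8 to 10 lower and 3 to 5 higher on AFFX, 5 lower and 0 to 1 higher on ABI (ABI arrays), 4 to 5 lower and 0 higher on both, and 7 to 15 different between platforms, with medians of 0.14 to 0.22 on AFFX and -0.11 to 0.02 on ABI. The 5 higher on AFFX came without AFFX control replicate 3, which added U2AF2 and PRPF31, and CDC5L ranged from -0.72 to 0.63 on AFFX, the latter without AFFX treated replicate 3. No cause of these shifts was tested. The shares of all genes called at the other fold limits, or under the other alternatives, are not given here. Those of the main setting do not stand for them. A separate spread per platform left 10 different between platforms. The median SD over control arrays was 0.261 on ABI and 0.0976 on AFFX.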
